A study of Caenorhabditis elegans with 36 samples.

Results

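Cytosolic ribosomal protein genes were taken as the protein-coding genes of the WBcel235 annotation whose symbol starts with *rpl-* or *rps-*, the *C. elegans* prefixes for large-subunit and small-subunit proteins. There were 78 of them, 47 *rpl-* and 31 *rps-* genes, among the 31106 features in the count tables. None of the 78 was at 0 in any of the 36 libraries. The prefix leaves out 6 genes that also encode proteins of the cytosolic ribosome (*rla-0*, *rla-1*, *rla-2*, *ubq-2*, *ubl-1* and *rack-1*), which are set beside the 78 below. One of the 78, *rpl-24.2*, is related to human RSL24D1, an assembly factor that takes the place of RPL24 in the maturing large subunit, so the name covers more than the mature ribosome.

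Small RNAs were sequenced from HRDE-1 immunoprecipitates (IPs) and from the inputs they were made from, in 6 genotypes with 3 replicates each. The genotypes were *mut-2(ne298); hrde-2(qe20)*, *simr-1(cmp36) mut-2(cmp306)*, *mut-2(ne298)*, *hrde-2(qe20)*, *simr-1(cmp36)* and wild-type, and all of them, wild-type included, carried *hrde-1* tagged with GFP and 3xFLAG at its own locus. The double mutant *simr-1 mut-2* carries a different *mut-2* allele from the other *mut-2* strains, so any contrast of it with *mut-2* sets one allele against another as well. Each replicate came from about 100000 whole adults of 1 strain, grown for 68 h at 20 °C, and the input and IP with the same number came from 1 lysate.

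A ribosome is built from ribosomal RNAs and one copy of most ribosomal proteins, whose genes are among the most highly expressed genes of growing and egg-laying animals, in germ line and soma. HRDE-1 is the nuclear Argonaute of the germ line. It carries 22G-RNAs, short RNAs made antisense to a transcript by RNA-dependent RNA polymerases, and directs silencing of the matching genes in the nucleus. MUT-2 adds the poly(UG) tails that make a transcript a template for many of these 22G-RNAs, and HRDE-2 and SIMR-1 are proteins of germ granules. The comparisons ask which small RNAs HRDE-1 holds and how this depends on those factors. The counts take reads of both strands, so for a highly expressed gene 22G-RNAs and fragments of its own mRNA cannot be told apart.

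Library totals ran from 4275760 to 17448124 counts, so that 10 RPM (reads per 1e+06 reads of the library) stood for at least 42.8 counts. Reads on structural RNA genes (rRNA, tRNA, snRNA, snoRNA) and genes overlapping them took between 12.1% and 39.1% of an input but between 1.53% and 3.98% of an IP, and RPM values are shares of all reads. Reads on the *simr-1* gene itself averaged 22.4 and 45.7 RPM in the *simr-1 mut-2* and *simr-1* IPs and 28.4 and 32.2 RPM in their inputs, against 114 RPM or more in every other group. Reads on *hrde-2* and *mut-2* remained in all groups and so do not check those alleles. In the *simr-1 mut-2* inputs, replicate 1 stood apart, with 5708 RPM summed over the 78 genes against 8965 and 9302 RPM in the others. The counted features hold 1 miRNA gene and 0 piRNA genes, so the IPs could not be checked by these classes, and small RNA counts are no measure of which cells are present.

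The libraries come from whole animals, in which fewer cells of a type and less RNA per cell cannot be told apart. In the inputs the ribosomal protein genes had many more reads per length than a typical protein-coding gene. Their median level was 60.2 RPM per kb of exon in wild-type inputs, against 1.74 RPM per kb over all protein-coding genes, and the single genes ran from 6.66 to 404 RPM per kb. The highest was *rpl-41.2*, which encodes the smallest ribosomal protein, with 557, 380 and 276 RPM per kb in the 3 wild-type inputs. Next came *rpl-43* (208, 213 and 176), *rpl-11.1* (163, 173 and 184), *rpl-38* (118, 142 and 96.9) and *rps-28* (148, 116 and 85.3 RPM per kb). The replicates of *rpl-41.2* lay above all those of *rpl-43*, whereas *rpl-43* overlapped *rpl-11.1*, and *rpl-38* overlapped *rps-28*. The lowest were *rpl-25.1* (7.84, 3.39 and 8.74 RPM per kb), *rpl-42* (20.2, 4.73 and 8.15) and *rpl-37* (36.1, 20.1 and 20.0), and *rpl-42* overlapped both of the others. The 5 genes with the most reads held 15.5% of the reads on the 78 in wild-type inputs, so the set was not carried by a few genes there. In wild-type IPs the top 5 held 23.7%. They were *rpl-16*, *rpl-11.2*, *rpl-42*, *rpl-2* and *rpl-43*, and all but *rpl-43* are among the genes not called lower there (below). Exon length was related to RPM (Spearman's rho 0.49 across the 78 genes) but hardly to RPM per kb (-0.17); genes are not independent replicates, and both are descriptions.

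**Figure D1:**
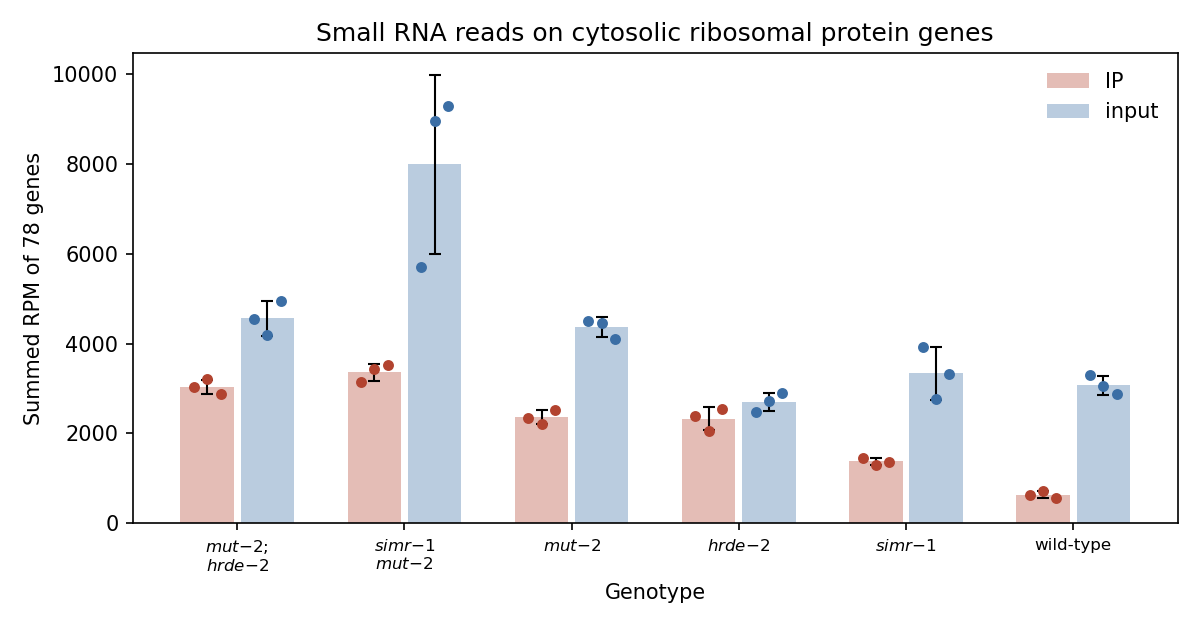
Summed RPM of the 78 genes (vertical axis) in IP and input libraries of each genotype (horizontal axis). Points are libraries, bars are means of 3 replicates and error bars are 1 SD. Wild-type IPs were lowest, at 559 to 720 RPM, and replicate 1 of the *simr-1 mut-2* inputs lay below the other replicates of that group.

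In the wild-type HRDE-1 IP these genes were strongly depleted. Their summed level was 617, 720 and 559 RPM in the IPs, against 3293, 3056 and 2870 RPM in the inputs. The ranges did not overlap, and the means were 632 ± 81.3 and 3073 ± 212 RPM (SD, n = 3 each). As a share of the reads on protein-coding genes alone, which leaves structural RNAs out, the set took 0.0810 ± 0.0108% of the IPs against 0.483 ± 0.0328% of the inputs. Gene by gene, counting as called a gene that differed at least 2-fold with an edgeR adjusted p not above 0.05, 72 of the 78 were lower in the IP, against 25.3% of the 14477 genes tested, and 1 was higher, against 28.9% of all genes. The median log2 change was -2.28 over the 78 and 0.15 over all genes. With library size alone as the scaling, the calls over all genes turned from 4191 higher and 3656 lower to 2661 and 4956, and 72 of the 78 were still called lower. All 31 *rps-* genes and 41 of 47 *rpl-* genes were called lower.

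The 3 most depleted were small-subunit genes. *rps-25* had 2.28, 2.80 and 2.27 RPM in the wild-type IPs, against 51.5, 39.1 and 35.8 RPM in the inputs, a log2 change of -3.76 ± 0.21 (SE; edgeR, adjusted p = 3.7e-05). *rps-1* followed at -3.25 ± 0.23 and *rps-21* at -3.19 ± 0.35 (edgeR, adjusted p = 4.7e-05 and 0.00016). *rps-8* had 5.11, 7.17 and 5.90 RPM in the IPs, against 59.3, 66.8 and 60.4 RPM in the inputs, and fell by 3.02 on the log2 scale (edgeR, adjusted p = 3.9e-05). For each of these genes every IP lay far below every input.

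The 6 genes not called lower in wild-type did not share this behaviour. *rpl-42*, a large-subunit gene, was the 1 gene called higher. It had 50.6, 13.9 and 19.1 RPM in the IPs, against 11.5, 2.71 and 4.66 RPM in the inputs. The groups did not overlap, and replicate 1 was highest in both. Its log2 change was 2.46 ± 0.60 (SE; edgeR, adjusted p = 0.0066). *rpl-11.2*, a copy of the gene for the RPL11 protein, which binds 5S ribosomal RNA together with RPL5, had 39.7, 18.96 and 38.4 RPM in the IPs, against 25.9, 13.1 and 25.4 RPM in the inputs. Here the groups overlapped and the change of 0.92 ± 0.36 was under 2-fold (edgeR, adjusted p = 0.045). *rpl-25.1* was near 3 RPM in both, with a log2 change of 0.33 ± 0.40 (edgeR, adjusted p = 0.47).

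The remaining genes of the 6 were *rpl-2*, *rpl-16* and *rpl-31*, of which *rpl-31* is named because it completes the count and falls outside the rule for named genes. *rpl-2* had 23.4, 31.2 and 23.3 RPM in the IPs, against 38.1, 31.4 and 36.7 RPM in the inputs, a log2 change of -0.11 ± 0.19 (SE; edgeR, adjusted p = 0.60). *rpl-16* had 38.3, 44.3 and 35.5 RPM in the IPs, against 71.4, 78.6 and 65.4 RPM in the inputs (log2 change -0.52 ± 0.14, edgeR, adjusted p = 0.011), and *rpl-31* changed by -0.56 (edgeR, adjusted p = 0.019). The exons of *rpl-2* overlap those of *dhcr-7* and the exons of *rpl-16* those of *lias-1*, so reads on these loci may belong to either gene. *rpl-31* overlaps no other gene. Of all 78 genes, 19 overlap another gene, and without them 55 of 59 were called lower.

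**Figure D2:**
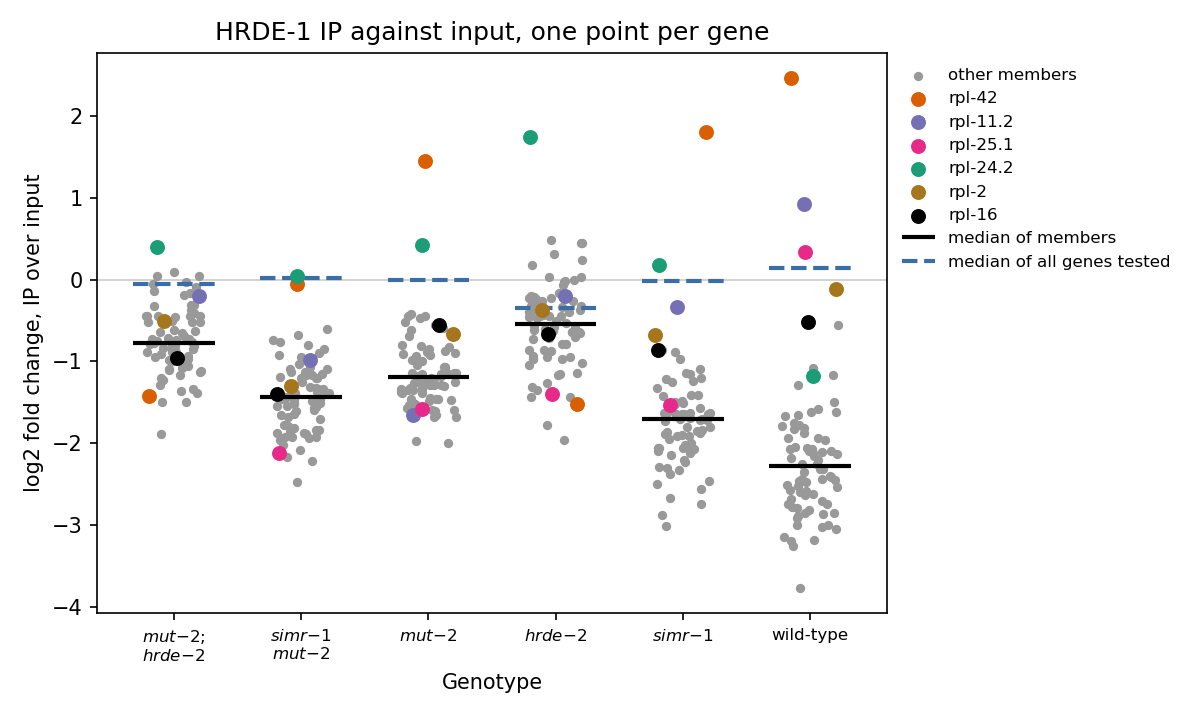
Log2 fold change of IP over input (vertical axis) for each ribosomal protein gene in each genotype (horizontal axis). Black lines are the medians of these genes, dashed blue lines those of all genes tested, and 6 genes are coloured. The medians of the set run between -2.28 in wild-type and -0.54 in *hrde-2*, and *rpl-24.2* is the highest point in *hrde-2*. *rpl-25.1* was not tested in *mut-2; hrde-2*.

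In *hrde-2* mutants the depletion against input was much smaller. The summed level was 2383, 2041 and 2552 RPM in the IPs, against 2484, 2719 and 2894 RPM in the inputs, so the ranges now overlapped, at means of 2326 ± 260 and 2699 ± 206 RPM (SD, n = 3 each). Of the 78, 14 were called lower, against 41.9% of the 12841 genes tested, and 1 was called higher, against 28.5%. The median log2 change was -0.54 over the 78 and -0.34 over all genes. Whatever the fold, 51 passed the adjusted p downwards and 3 upwards. The genes called lower included *rps-21* (log2 change -1.96 ± 0.20), *rps-25* (-1.44 ± 0.17), *rps-24* (-1.44) and *rpl-41.2* (-1.26 ± 0.11). *rps-25* had 17.01, 15.9 and 22.5 RPM in the *hrde-2* IPs, against 37.2, 42.7 and 46.9 RPM in the inputs. *rps-8* by contrast had 56.1, 45.1 and 59.5 RPM in the IPs, against 48.1, 51.0 and 57.1 RPM in the inputs, and the groups overlapped. The count of 14 depended on single libraries and on scaling: it was 31 without replicate 1, 21 without replicate 2 and 23 without replicate 3, 8 with DESeq2, 9 with library size alone, 6 with no filter on low counts and 21 with structural RNA genes left out. Relative to all genes the median of the set was -0.20, and it was 0.56 with no filter on low counts, where 25370 genes were tested. The reference matters here, since the median log2 change of protein-coding genes alone was 0.16. For the 6744 protein-coding genes passing a cut of 10 RPM, the median log2 RPM ratio (IP over input) was 1.03, against -0.29 for the set. In wild-type these ratios were -0.71 and -2.44, so the set lay below such genes in both strains.

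The single gene called higher in the *hrde-2* IP was *rpl-24.2*. It had 150, 120 and 124 RPM in the IPs, against 31.4, 31.2 and 37.0 RPM in the inputs, a log2 change of 1.74 ± 0.11 (SE; edgeR, adjusted p = 2.2e-06). In wild-type it had 10.3, 15.6 and 10.5 RPM in the IPs, against 36.2, 37.9 and 30.2 RPM in the inputs. Its inputs thus overlapped between the strains while its IPs did not. *rpl-10*, whose product joins the large subunit late in its maturation, was next among those that passed the adjusted p but not 2-fold, at 0.45 ± 0.11 (edgeR, adjusted p = 0.0044).

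In *simr-1* mutants most of the genes were again depleted. The summed level was 1461, 1298 and 1361 RPM in the IPs, against 3922, 2760 and 3323 RPM in the inputs, at means of 1373 ± 82.4 and 3335 ± 581 RPM (SD, n = 3 each). Of the 78, 70 were called lower, against 21.6% of all genes tested, and 1, *rpl-42*, was called higher, against 8.42%. The median log2 change was -1.70 over the 78 and -0.01 over all genes. With library size alone 62 of the 78 were called lower, and the calls over all genes turned from 1155 higher and 2957 lower to 2369 and 2558. Of the genes called lower in wild-type, 68 were also called lower in *simr-1*, which is 97.1% of the *simr-1* calls and 94.4% of the wild-type calls. With 72 and 70 of the same 78 genes called lower, a large overlap had to follow. *rpl-42* had 12.4, 21.3 and 23.8 RPM in the *simr-1* IPs, against 3.20, 4.88 and 4.89 RPM in the inputs (log2 change 1.81 ± 0.27, edgeR, adjusted p = 0.00033).

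In *mut-2* mutants the set stood between. The summed level was 2332, 2215 and 2525 RPM in the IPs, against 4509, 4469 and 4111 RPM in the inputs, at means of 2357 ± 156 and 4363 ± 219 RPM (SD, n = 3 each). Of the 78, 54 were called lower, against 22.3% of all genes tested, and 1, again *rpl-42*, was called higher, against 13.4%. The median log2 change was -1.19 over the 78 and -0.01 over all genes. The most depleted were *rpl-36.A* (-2.001 ± 0.14), *rpl-29* (-1.97) and *rps-1* (-1.68 ± 0.10). *rpl-42* had 8.99, 10.0 and 7.95 RPM in the *mut-2* IPs, against 3.61, 3.61 and 1.84 RPM in the inputs (log2 change 1.44 ± 0.24, edgeR, adjusted p = 0.00027). Structural RNA reads were most abundant in the *mut-2* inputs, at 35.4% to 39.1%. Over protein-coding reads alone the set took 0.280 ± 0.0185% of the *mut-2* IPs and 0.744 ± 0.0555% of the inputs.

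The double mutants differed in how many genes of the set were called lower in the IP. In *mut-2; hrde-2*, 18 of 77 tested genes (23.4%) were called lower, which is below the 28.9% of all genes, and 0 were called higher, against 2.96%. The median log2 change was -0.78 over the set and -0.06 over all genes, and the difference of -0.72 between them was -0.10 with no filter on low counts. This count was 30 without replicate 2. Only *rpl-24.2* passed the adjusted p in the upward direction, at 0.39 ± 0.08 (edgeR, adjusted p = 0.00059), and it was the 1 gene with an unadjusted p under 0.05 there; DESeq2 also called 0 higher. *rpl-25.1* had too few counts to be tested, down to 2 in an IP. In *simr-1 mut-2*, 66 of 78 were called lower, against 22.5% of all genes, and 0 were called higher, against 3.75%, with 0 at an unadjusted p under 0.05 in that direction and 0 by DESeq2. The median log2 change there was -1.43 over the set and 0.02 over all genes.

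The ratio of IP to input was next compared between genotypes in 1 model over the 12 libraries concerned, in which a positive value means that the ratio was higher in the mutant. In *hrde-2* against wild-type, 65 of the 78 had a higher ratio, against 33.7% of the 15444 genes tested, and 2 had a lower one, against 36.1%. The median difference was 2.07 on the log2 scale over the set and -0.07 over all genes. The largest were *rpl-24.2* (3.27 ± 0.24), *rps-8* (3.16 ± 0.22) and *rps-5* (3.11 ± 0.26). The genes with a lower ratio were *rpl-42* (-3.63 ± 0.81, edgeR, adjusted p = 0.0010) and *rpl-25.1* (-1.39 ± 0.60, edgeR, adjusted p = 0.049). The call on *rpl-25.1* was lost without any one *hrde-2* replicate or wild-type replicate 1, which left 1 gene. Of the 11 genes without a call, *rpl-2* (0.08 ± 0.25) and *rpl-16* (0.20 ± 0.19) were among the smallest differences.

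In *mut-2* against wild-type, 63 of the 78 had a higher ratio, against 28.4% of all genes tested, and 1, *rpl-11.2*, had a lower one, against 9.64%. With the replicate number, which stands for the lysate, as a block, *rpl-25.1* was also called, which made 2. The median difference was 1.66 over the set and 0.44 over all genes. The count of 63 was 23 without wild-type replicate 1, and the count of 1 was 3 without that library and 2 without *mut-2* replicate 3. Over all genes the calls split into 4440 higher and 1507 lower with the main scaling but 2768 and 2384 with DESeq2. The largest differences were *rps-25* (2.67 ± 0.22), *rps-27* (2.38) and *rps-10* (2.38). *rpl-11.2* was at -2.13 ± 0.45 (SE; edgeR, adjusted p = 0.0014).

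In *simr-1* against wild-type, 3 genes had a higher ratio, against 9.37% of all genes tested, and 1, *rpl-25.1*, a lower one, against 21.9%. The higher ones were *rpl-24.2* (1.19 ± 0.20), *rpl-5* (1.16 ± 0.23) and *rps-5* (1.14 ± 0.28), the last encoding a protein of the small-subunit head (edgeR, adjusted p = 0.00047, 0.0014 and 0.0058). The block on the lysate added *rpl-11.2* to the lower calls, for 2 in all. This comparison rested on the scaling. The split of 3 higher and 1 lower became 51 and 0 with library size alone and 18 and 1 with DESeq2, while over all genes 1455 higher and 3405 lower became 4127 and 442 with library size alone and 2616 and 1672 with DESeq2. The count of 3 was 15 without *simr-1* replicate 3, 11 without wild-type replicate 2 and 6 without *simr-1* replicate 1. The count of 1 was 0 without *simr-1* replicate 3 and 2 without wild-type replicate 1.

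Scaling moved the median of all genes: in *simr-1* against wild-type it was -0.63 with the main scaling, -0.29 with DESeq2 and 0.23 with library size alone, and in *mut-2* against wild-type 0.44, 0.06 and 0.50. The set is therefore also given relative to that median. Relative to all genes, the median of the set was 2.14 higher in *hrde-2*, 1.22 higher in *mut-2* and 0.96 higher in *simr-1*, each against wild-type. With DESeq2, library size alone, no filter, structural genes left out, the lysate block or a term for the library name, these values stayed between 2.14 and 2.52, between 0.89 and 1.67, and between 0.96 and 1.15. With 1 replicate left out they ran from 1.9 to 2.24, from 1.04 to 1.27 and from 0.80 to 1.13. The library names carry a suffix in some replicates whose meaning the labels do not give. Between libraries with the same form of name, the median log2 difference in RPM ratio was 2.19 and 2.05 in *hrde-2*, with 2 and 1 replicates a side, against 2.11 over all libraries, 1.19 against 1.04 in *simr-1*, with 3 mutant and 2 wild-type replicates, and 1.24 against 1.47 in *mut-2*, with 3 mutant replicates and 1 wild-type replicate. All *mut-2* libraries carry the suffix and no *simr-1* library does, so there the suffix can be told from the genotype only among the wild-type replicates, 1 of which carries it.

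Against *mut-2*, few genes of the set reached 2-fold in the double mutants. In *mut-2; hrde-2*, 2 of the 78 had a higher ratio than in *mut-2*, against 1.74% of all genes tested, and 1 a lower one, against 21.4%. The higher ones were *rpl-11.2* (1.46 ± 0.26) and *rps-9* (1.06 ± 0.14), a small-subunit protein that takes part in decoding, and the lower one was *rpl-42* (-2.85 ± 0.44; edgeR, adjusted p = 0.00042, 2.6e-05 and 9.5e-05). A further 41 genes passed the adjusted p upwards without reaching 2-fold, and the median difference was 0.42 over the set and -0.05 over all genes. The count of 2 was 6 without *mut-2; hrde-2* replicate 1 or 3, 4 without *mut-2* replicate 3, and 1 without *mut-2; hrde-2* replicate 2 or *mut-2* replicate 1 or 2. In *simr-1 mut-2*, 0 had a higher ratio, against 0.114% of all genes, with 0 at an unadjusted p under 0.05 and 0 by DESeq2. There, 1 had a lower ratio, against 10.7%, which was *rpl-42* (-1.63 ± 0.45, edgeR, adjusted p = 0.028). That call was lost without any one *mut-2* replicate or *simr-1 mut-2* replicate 2 or 3, and without *mut-2* replicate 1 or 2 the calls were 2 other genes, *rpl-16* and *rps-21*. The median difference there was -0.44 over the set and -0.14 over all genes.

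**Figure D3:**
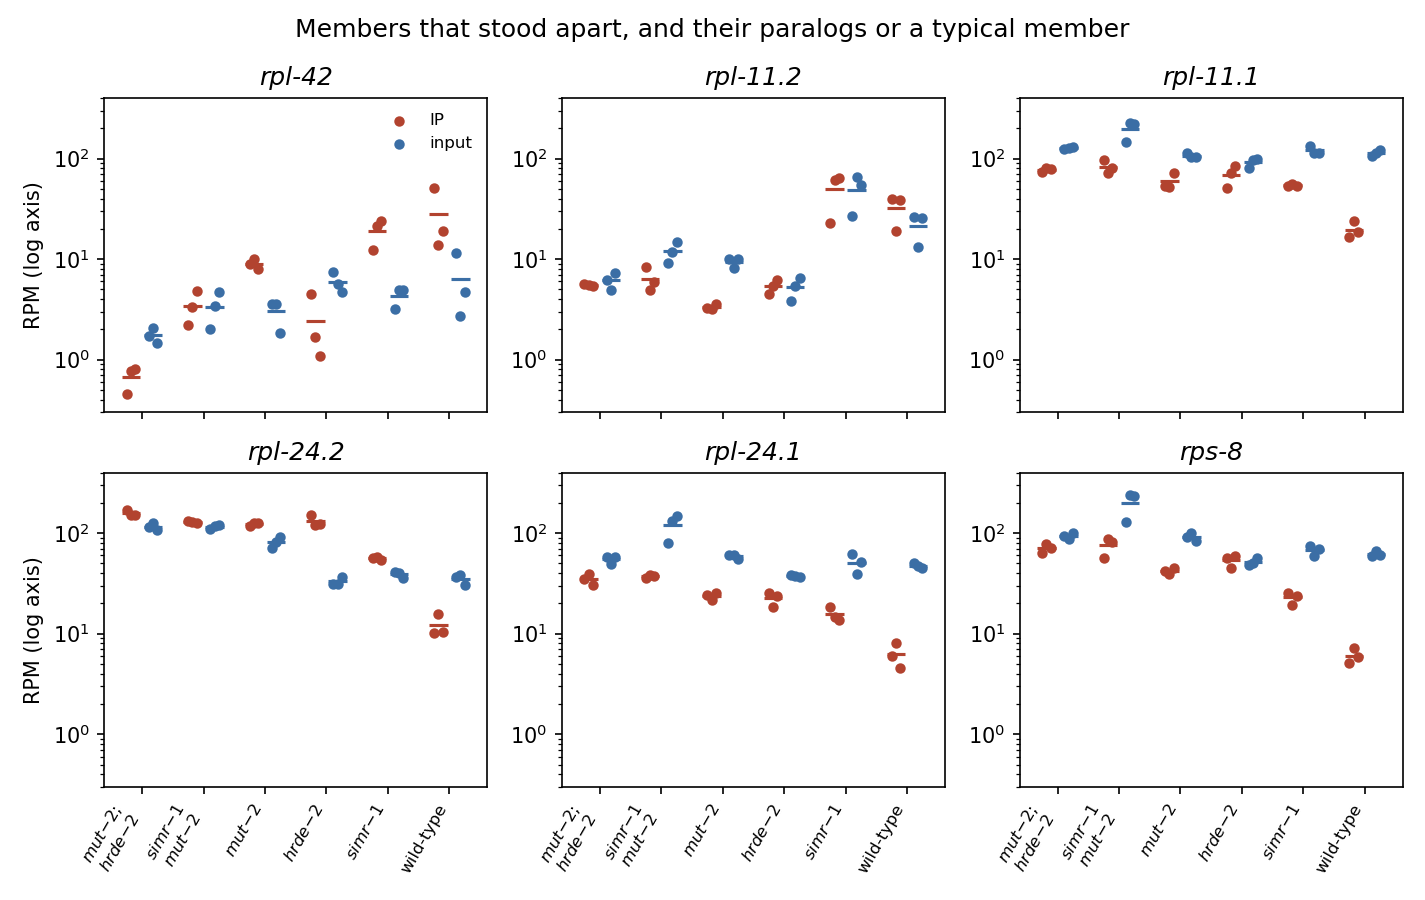
RPM in each library (vertical, log axis) of *rpl-42*, *rpl-11.2*, *rpl-11.1*, *rpl-24.2*, *rpl-24.1* and *rps-8* in the IP and input of each genotype (horizontal). Points are replicates and short lines their means. *rpl-42* was above input in *mut-2*, *simr-1* and wild-type IPs. The IP mean of *rpl-24.2* was above its input mean in every mutant, with 131 against 33.2 RPM in *hrde-2* and 56.2 against 38.9 RPM in *simr-1*.

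The gene that ran against the set most often was *rpl-42* (WBGene00004455, chromosome II, 11092713 to 11093871 in WBcel235, plus strand), whose exons overlap no other gene. Its mean level in the IP was 0.68 RPM in *mut-2; hrde-2*, 3.44 RPM in *simr-1 mut-2*, 8.99 RPM in *mut-2*, 2.42 RPM in *hrde-2*, 19.2 RPM in *simr-1* and 27.9 RPM in wild-type. The corresponding inputs were at 1.75, 3.38, 3.02, 5.92, 4.32 and 6.30 RPM. The *hrde-2* IPs, at 4.48, 1.69 and 1.10 RPM, thus all lay under the wild-type IPs, which began at 13.9 RPM, while the inputs of the same strains overlapped.

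*rpl-11.2* (WBGene00004423, X, 2241738 to 2242618, minus strand) and *rpl-25.1* (WBGene00004438, X, 4715178 to 4715801, plus strand) are the 2 of the 78 on the X chromosome. Each has an autosomal copy in the set. In IPs *rpl-11.2* had 4.48, 5.43 and 6.21 RPM in *hrde-2* and 23.04, 60.6 and 64.6 RPM in *simr-1*, against 39.7, 18.96 and 38.4 RPM in wild-type. In inputs it had 3.85, 5.45 and 6.49 RPM in *hrde-2*, against 25.9, 13.1 and 25.4 RPM in wild-type, so *hrde-2* was lower than every wild-type replicate in both kinds of library. Its autosomal copy *rpl-11.1*, on chromosome V, had 51.2, 71.2 and 85.1 RPM in *hrde-2* IPs against 16.5, 23.7 and 18.5 RPM in wild-type IPs. In the inputs *rpl-11.1* had 79.8, 96.5 and 99.7 RPM in *hrde-2* against 107, 113 and 120 RPM in wild-type. The copies therefore differed in direction in the IPs of these strains. *rpl-25.1* was under 1 RPM in the IPs of both double mutants and of *mut-2* and *hrde-2*, against 2.72 to 3.70 RPM in wild-type IPs. *rpl-25.2*, its copy on chromosome I, had 15.8, 13.3 and 17.5 RPM in *hrde-2* IPs against 4.49, 7.25 and 3.44 RPM in wild-type IPs.

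The other genes that share a number are autosomal. *rpl-24.1*, for the mature RPL24, had 25.4, 18.6 and 23.9 RPM in *hrde-2* IPs against 5.97, 8.08 and 4.60 RPM in wild-type IPs. Its ratio of IP to input differed by 1.96 ± 0.24, below the 3.27 of *rpl-24.2*. The difference between these genes, which share a number but not a role, was not tested. *rpl-24.2* had mean IP levels of 158 RPM in *mut-2; hrde-2*, 129 RPM in *simr-1 mut-2*, 123 RPM in *mut-2*, 131 RPM in *hrde-2* and 56.2 RPM in *simr-1*, against 12.1 RPM in wild-type. Its inputs were at 115, 116, 81.7, 33.2 and 38.9 RPM in these mutants, against 34.8 RPM in wild-type, so in the *mut-2* strains the input was higher too. *rpl-41.1* and *rpl-41.2* lie close together on chromosome I and encode the same small protein family, so reads could be split between them; *rpl-41.2* also overlaps *zig-7*. Their ratios in *hrde-2* against wild-type differed by 2.25 ± 0.38 and 1.15 ± 0.40. *rpl-7* and *rpl-7A* differed by 2.74 ± 0.28 and 1.72 ± 0.21, and *rpl-36* and *rpl-36.A* by 1.999 ± 0.25 and 2.01 ± 0.37 (edgeR, each called higher).

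**Figure D4:**
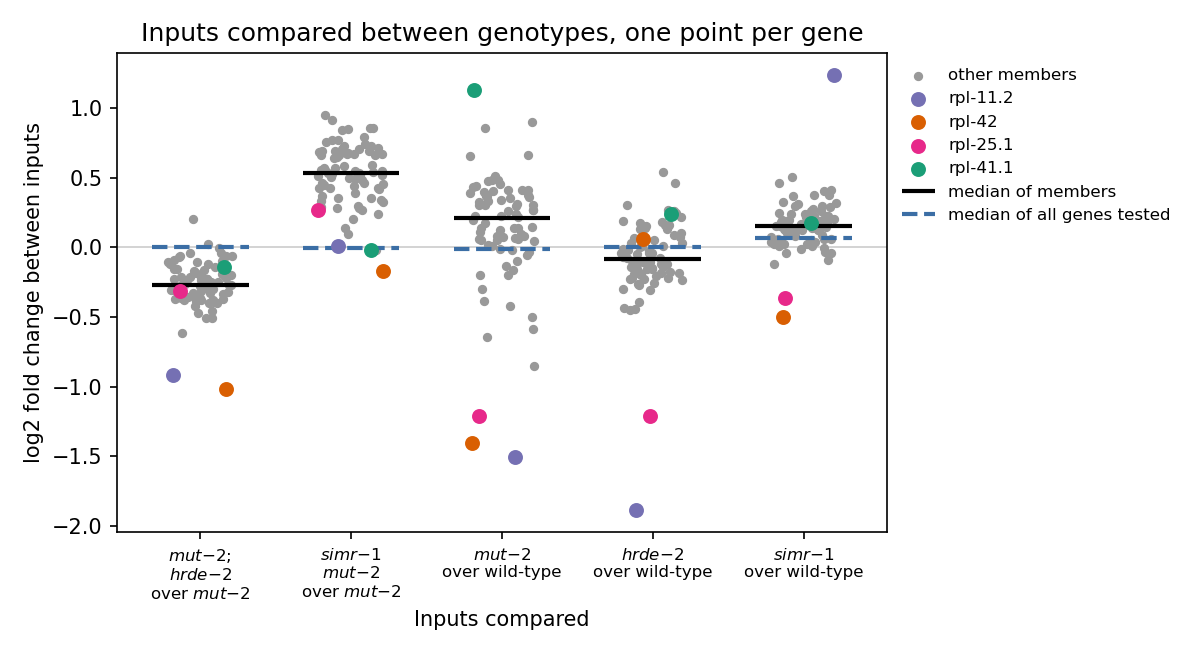
Log2 fold change between the inputs of 2 genotypes (vertical axis) for each gene of the set; the horizontal axis gives the inputs compared, the mutant over its reference. Black lines are the medians of the set, dashed blue lines those of all genes tested. The median of the set is highest in *simr-1 mut-2* over *mut-2*, at 0.53, and *rpl-11.2* is lowest in *hrde-2* over wild-type, at -1.89.

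Between inputs few genes of the set differed. In *hrde-2* against wild-type, 1 gene, *rpl-11.2*, was lower (-1.89 ± 0.34, edgeR, adjusted p = 0.0059), against 10.0% of all genes tested, and 0 were higher, against 4.06%. There, 1 had an unadjusted p under 0.05 upwards, and DESeq2 called 0 higher. *rpl-25.1* was also called lower without wild-type replicate 2, for 2 in all. In *simr-1* against wild-type, 0 were higher, against 1.19%, and 0 were lower, against 13.2%. Upwards, 5 had an unadjusted p under 0.05 and DESeq2 called 1, *rpl-11.2*, while downwards both counts were 0. *rpl-11.2* had 26.7, 66.2 and 54.7 RPM in *simr-1* inputs, against 25.9, 13.1 and 25.4 RPM in wild-type inputs (log2 change 1.24 ± 0.40, edgeR, adjusted p = 0.071), and was called higher without *simr-1* replicate 1.

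In *mut-2* against wild-type inputs, 1 gene was higher, against 11.1% of all genes tested, and 2 were lower, against 33.1%. The higher one was *rpl-41.1* (1.13 ± 0.25, edgeR, adjusted p = 0.0031), with 30.0, 28.7 and 20.4 RPM in *mut-2* inputs against 10.5, 11.7 and 6.16 RPM in wild-type inputs. The lower ones were *rpl-11.2* (-1.51 ± 0.28, edgeR, adjusted p = 0.0011) and *rpl-42* (-1.40 ± 0.50, edgeR, adjusted p = 0.032). *rpl-11.2* had 10.0, 8.21 and 10.1 RPM in *mut-2* against 25.9, 13.1 and 25.4 RPM in wild-type inputs, with no overlap. *rpl-42* had 3.61, 3.61 and 1.84 RPM in *mut-2* against 11.5, 2.71 and 4.66 RPM in wild-type inputs, and these groups overlapped. The count of 1 was 0 without wild-type replicate 1 or 3 and 2 without *mut-2* replicate 1. The count of 2 was 5 without wild-type replicate 2, 4 without wild-type replicate 3, and 1 without wild-type replicate 1 or any one *mut-2* replicate. The median change of the set had no stable direction: it was 0.21 over all libraries but -0.07, -0.08 and -0.07 without wild-type replicate 1, 2 or 3, and relative to all genes 0.22 and, with a library left out, -0.06 to 0.28. It was 0.55 with library size alone, where the median of all genes was 0.32 and the calls over all genes were 3344 higher and 4091 lower, against 1504 and 4491 with the main scaling.

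Between the *mut-2* backgrounds the inputs of *mut-2; hrde-2* had 0 genes higher, against 0.343% of all genes tested, and 0 lower, against 6.21%. Upwards 0 and downwards 44 had an unadjusted p under 0.05, and DESeq2 called 0 in both directions. The median change was -0.27 but 0.02 with library size alone, and relative to all genes it was -0.27 with both. Besides, 1 gene was called lower without *mut-2* replicate 2 or *mut-2; hrde-2* replicate 3 (*rpl-11.2*) and without *mut-2* replicate 3 (*rpl-42*). Over all genes 39 higher and 707 lower calls became 219 and 517 with library size alone. In *simr-1 mut-2* against *mut-2*, 0 were called higher, against 3.57%, and 0 lower, against 6.98%. The median change was 0.53, 75 of the 78 values were positive, and 44 passed the adjusted p upwards without reaching 2-fold, 64 with an unadjusted p under 0.05; downwards that count was 0, and DESeq2 called 0 in both directions. Without *simr-1 mut-2* replicate 1, 5 were called higher, and 21 with library size alone, when the calls over all genes were 1030 higher and 623 lower, against 408 and 799 with the main scaling. *rps-8* had 129, 237 and 235.3 RPM in the inputs of *simr-1 mut-2*, against 92.0, 101 and 83.2 RPM in those of *mut-2*, a log2 change of 0.80 ± 0.17 (edgeR, adjusted p = 0.020).

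**Figure D5:**
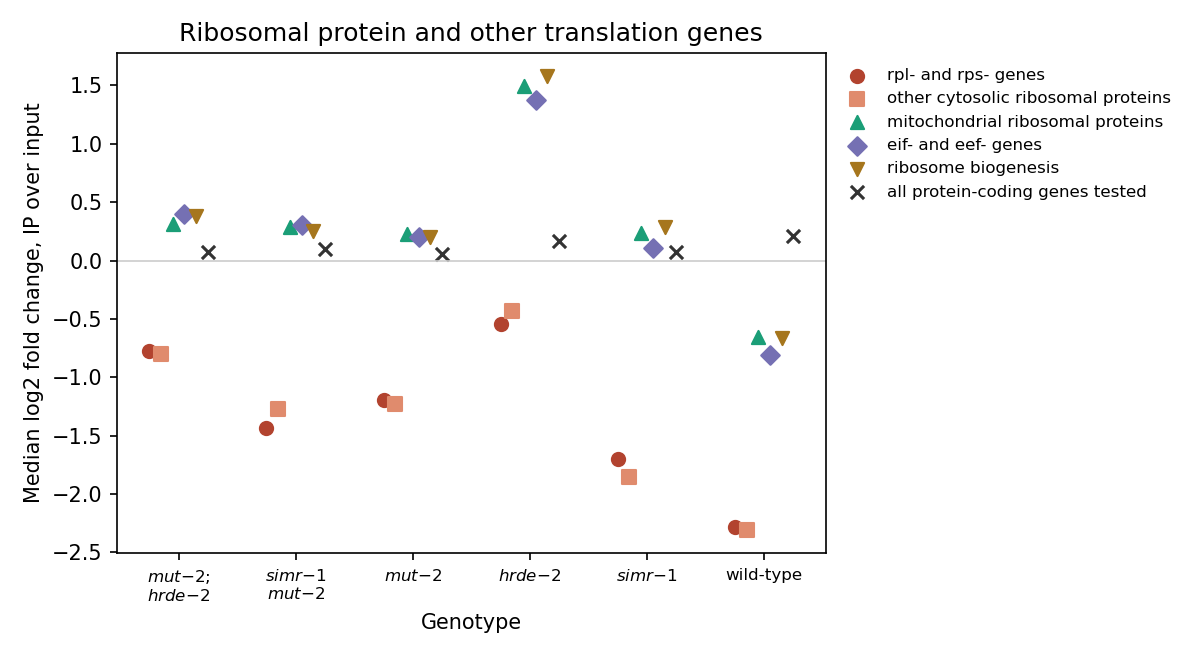
Median log2 fold change of IP over input (vertical axis) in each genotype (horizontal axis) for the *rpl-* and *rps-* genes, 4 other lists and all protein-coding genes tested. The *rpl-* and *rps-* genes, plotted together, and the 6 cytosolic ribosomal proteins with other names lie below the remaining series in every genotype. In *hrde-2* the mitochondrial, factor and biogenesis lists lie between 1.37 and 1.58. All protein-coding genes are at 0.16 there and the *rpl-* and *rps-* genes at -0.54.

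Set beside other genes of translation, the cytosolic ribosomal proteins were lower in HRDE-1 IPs in every genotype. The 6 cytosolic ribosomal proteins with other names followed the 78, with a median log2 change of IP over input of -0.43 in *hrde-2*, -1.23 in *mut-2*, -1.86 in *simr-1* and -2.31 in wild-type. In wild-type all 6 were called lower, against 21.1% of all protein-coding genes tested, among them *rla-1* (-3.07), a protein of the stalk that recruits translation factors, and *rack-1* (-1.57), a scaffold on the small subunit. The 69 genes for mitochondrial ribosomal proteins had a median of 1.499 in *hrde-2* and -0.66 in wild-type, and 57 and 3 of them were called higher, against 32.7% and 29.2% of all protein-coding genes tested. The 31 translation factor genes (*eif-* and *eef-*) had medians of 1.37 and -0.81, with 23 and 0 called higher, and 18 ribosome biogenesis genes had medians of 1.58 and -0.66, with 17 and 0 called higher. In *hrde-2* 1 of 78 ribosomal protein genes was called higher, and that one was *rpl-24.2*. The difference between *hrde-2* and wild-type ratios had a median of 2.56 in the mitochondrial list, 2.79 in the factors and 3.23 in the biogenesis list, beside 2.07 in the 78. For *mut-2* against wild-type these medians were 1.44, 1.46 and 1.67, beside 1.66 in the 78. For *simr-1* against wild-type they were 0.76, 0.80 and 1.18, beside 0.32 in the 78. These lists differ in level and size, and no test compared them.

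Large-subunit and small-subunit genes had similar medians, with no constant order. They were furthest apart in *mut-2; hrde-2*, at -0.84 over the *rpl-* genes and -0.52 over the *rps-* genes. In *simr-1* they were -1.64 and -1.71, and in *simr-1 mut-2* -1.46 and -1.28. In wild-type the median log2 change was -2.13 over 47 *rpl-* genes and -2.41 over 31 *rps-* genes, in *hrde-2* -0.58 and -0.47, and in *mut-2* -1.18 and -1.20. By chromosome, the median in wild-type ran between -2.45 and -2.22 on the 5 autosomes, whereas the 2 genes on X had a median of 0.62. Levels per kb in IP and input of the same strain were related across the 78 genes with Spearman's rho of 0.83 in *mut-2; hrde-2*, 0.80 in *simr-1 mut-2*, 0.84 in *mut-2*, 0.72 in *hrde-2*, 0.61 in *simr-1* and 0.47 in wild-type. These are descriptions over genes that share lysates and depth.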

How the data were processed

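Small RNAs of 18 to 30 nt from 36 libraries were treated with polyphosphatase and sequenced. Adapters and low-quality reads were removed by the authors (Cutadapt 3.4, FASTX-Toolkit), Bowtie2 2.5.0 placed the reads on WormBase WS258 (the WBcel235 assembly) and featureCounts (Subread 2.0.1) assigned them to exons without regard to strand. Each deposited table holds expected counts, since reads on several genes were divided between them, with no normalization. Values above 0 were fractional in 10.4% of cases (8.37% for the ribosomal protein genes), and values were rounded before testing, although whole counts had been assumed in the design. Symbols and biotypes came from Ensembl 115. Wild-type replicate 2 is numbered as replicate 1 in its file headers; the label was followed.

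Tests used R 4.3.3 and edgeR 4.0.16 (quasi-likelihood F test, TMM, Benjamini-Hochberg over all genes) keeping genes that reached 10 counts in 3 or more of the libraries fitted. There were 6 fits of IP against input, 5 of the difference in that ratio between genotypes and 5 between inputs. RPM are shares of all unrounded counts of a library; a pseudocount of 1 RPM was added before taking log2 ratios of RPM. Tables and plots used Python 3.11.15, numpy 2.4.6, pandas 2.3.3, scipy 1.17.1 and matplotlib 3.10.9. Per the study's methods, replicates were biological, with worms grown and libraries made in triplicate for each strain.

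Input and IP of 1 number share a lysate. Deviations from the group mean correlated above 0.1 in 16 of 18 such pairs (-0.003 to 0.523) and in 5 of 30 pairs across genotypes, so the number was used as a block for the ratios as an alternative. No replicates were duplicates (the lowest chi-square per gene was 3.01). Other alternatives were DESeq2 1.42.0, library size alone, no count filter, structural RNA genes left out, a term for the library name, each replicate left out and overlapping genes left out.

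Named genes were the 5 highest and 3 lowest by RPM per kb in wild-type inputs, genes sharing a number, the 3 largest and smallest changes in 8 comparisons among genes with at least 10 RPM, and every gene of a direction with at most 5 calls. The genes and lists were chosen with earlier results of these data known. Procedures were tested on simulated data. No sequences are printed.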

Additional observations from a re-analysis of the deposited data

Results flagged for a closer look

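By the test of the difference itself, the ratio of IP to input differed between genotypes for some of the 78 ribosomal protein genes. In *hrde-2* against wild-type 67 differed, 65 higher and 2 lower, against 33.7% higher and 36.1% lower over all genes tested. In *mut-2* against wild-type 64 differed, 63 higher and 1 lower, against 28.4% and 9.64%. In *simr-1* against wild-type 4 differed, 3 higher and 1 lower, against 9.37% and 21.9%. In *mut-2; hrde-2* against *mut-2* 3 differed, 2 higher and 1 lower, against 1.74% and 21.4%, and in *simr-1 mut-2* against *mut-2* 1 was lower, against 10.7%. *rpl-42* was lower in *hrde-2* than in wild-type and in both double mutants than in *mut-2*, and *rpl-25.1* was lower in *hrde-2* and *simr-1* than in wild-type. Both calls on *rpl-25.1*, and the call on *rpl-42* in *simr-1 mut-2*, were lost when certain single replicates were left out.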

How the results depend on the processing

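No call on a named gene changed sign under an alternative, but medians of the set did in 4 comparisons: relative to all genes, IP against input in *hrde-2* was -0.20 and 0.56 with no filter; the change in *mut-2* against wild-type inputs was 0.21 and -0.08 to -0.07 without any one wild-type replicate; that in *simr-1* against wild-type inputs was, relative to all genes, 0.09 and -0.02 without *simr-1* replicate 1; and that in *mut-2; hrde-2* against *mut-2* inputs was -0.27 and 0.02 with library size alone. Among counts, sums and ratios under alternatives, 305 stayed within 1.5 times the main count or within 1 SD and 79 did not. For IP against input, genes called lower in *hrde-2* were 14, but 8 with DESeq2, 9 with library size alone, 6 with no filter and 9 without genes that overlap another gene, and 21 to 31 with a replicate left out. In *mut-2; hrde-2* they were 18, and 20 to 30 with a replicate left out. In wild-type, genes called higher were 1, and 2 with no filter. For the ratio of IP to input, genes called higher in *simr-1* against wild-type were 3, but 18 with DESeq2, 51 with library size alone, 12 with a term for the library name, 27 with no filter, 9 without structural RNA genes, and 2 to 15 with a replicate left out. Those called lower there were 1, but 0 with library size alone, 2 with the replicate block and 0 to 2 with a replicate left out. In *mut-2* against wild-type, genes called higher were 63, and 23 to 63 with a replicate left out. Those called lower were 1, but 2 with DESeq2, with the library name term and with the replicate block, and 1 to 3 with a replicate left out. In *hrde-2* against wild-type, those called lower were 2, but 1 with library size alone and 1 to 2 with a replicate left out. In *mut-2; hrde-2* against *mut-2*, those called higher were 2, but 1 with library size alone or without structural RNA genes, 5 with no filter and 1 to 6 with a replicate left out. In *simr-1 mut-2* against *mut-2*, those called lower were 1, but 0 with library size alone and 0 to 2 with a replicate left out. Between inputs, *hrde-2* against wild-type had 1 lower, but 2 with library size alone and 1 to 2 with a replicate left out. *simr-1* against wild-type had 0 higher, but 1 with DESeq2, library size alone, no filter, or structural RNA genes left out, and 0 to 1 with a replicate left out. *mut-2* against wild-type had 1 higher, but 3 with library size alone, 0 with the library name term and 0 to 2 with a replicate left out, and 2 lower, but 1 with library size alone, 1 with the library name term and 1 to 5 with a replicate left out. *mut-2; hrde-2* against *mut-2* had 0 lower, and 0 to 1 with a replicate left out. *simr-1 mut-2* against *mut-2* had 0 higher, but 21 with library size alone and 0 to 5 with a replicate left out. The cause of these shifts was not tested.

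With a pseudocount of 5 RPM the set's median log2 RPM ratio (IP over input) was -1.11 in *simr-1* and -1.87 in wild-type, against -1.31 and -2.44 with 1 RPM. Without structural RNA genes the summed input level was 5936 RPM in *mut-2; hrde-2*, 10503 RPM in *simr-1 mut-2*, 6901 RPM in *mut-2*, 3087 RPM in *hrde-2*, 4280 RPM in *simr-1* and 3767 RPM in wild-type. The replicate block, which pairs IP and input of 1 lysate, changed no other call count by over 1.5 times; between genotypes replicate numbers were numbers alone (-0.434 to 0.403), and with them as a block the input counts were unchanged. Depth limits *rpl-25.1* most, with 2 to 33 counts in its shallowest libraries of each group.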
